A study of Nannochloropsis oceanica strain IMET1 with 15 samples.

Results

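Transcripts of 4 genes of the oleaginous microalga *Nannochloropsis oceanica* IMET1 were followed here, 1 that encodes a coat protein of lipid droplets and 3 that encode lipases. The genes are NO11G02550, which the study names as the lipid droplet (LD) surface protein gene, NO20G00510, described as lipase 1, NO18G01550, described as a triglyceride lipase, and NO05G00120, named as a lipase gene. They were taken by identifier from a matrix of 10493 genes. All 4 averaged at least 1 across the libraries, the minimum for testing, as did 9440 genes in total. The gene descriptions read as names of best matches in other species and were not tested with the expression data. The study had itself picked these genes with the same libraries in view, so their changes are not independent evidence of a direction.

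RNA was sequenced from 5 groups with 3 biological replicates each. M1 and M2 are lines in which NO08G00280, a putative methyltransferase of the DNA mark N6-methyladenine (6mA), was knocked out, and M3 and M4 are lines in which NO06G02500, a candidate 6mA demethylase, was knocked out. All 4 lines were made by CRISPR–Cas9 from IMET1 with a vector carrying a bleomycin resistance gene and were picked as zeocin-resistant colonies. The reference was the wild type (WT) of the same strain, and all groups were cultured under high light for a week. Each line comes from 1 colony, so its replicates measure cultures of that line and not separate knockouts. All 4 lines carry the resistance vector, which the WT is not described to carry, so comparisons between lines have it on both sides and those with the WT do not. All 4 comparisons with the WT use the same 3 WT libraries.

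Triacylglycerol (TAG), the storage oil of such algae, is kept in lipid droplets, which are cores of neutral lipid inside a single layer of polar lipid. Proteins on that layer coat the droplet and tend to follow the amount of oil, and in *Nannochloropsis* the LD surface protein is a major droplet protein used as a marker of it. Lipases cut ester bonds and release fatty acids, and triglyceride lipases do so from TAG. Gene products of these kinds thus coat stored oil or take lipids apart.

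The values are TPM (a transcript level per gene length and library size) after scaling across libraries by the trimmed mean of M values (TMM), and no read counts were used here. Each is a share of the transcripts in a bulk culture, so fewer cells with a transcript and less of it per cell cannot be told apart. Coverage divided by FPKM, which follows sequencing depth, lay between 4.69 and 6.17 over the 15 libraries (median 5.26). The 160 genes with chloroplast or mitochondrial identifiers made up 0.0453% to 0.0465% of all TPM in M1, 0.0271% to 0.0318% in M2, 0.0352% to 0.0421% in M3, 0.0600% to 0.0750% in M4 and 0.0330% to 0.0476% in the WT. M2 thus lay below the WT range in this share and M4 above it, and its part in the results of these lines was not tested. The knocked-out genes did not serve as a check of the lines, since Cas9 edits need not lower a transcript. NO08G00280 had log2-fold changes of 0.03 in M1 and -0.15 in M2 (adjusted p = 0.962 and 0.645 from limma), and NO06G02500 had 0.34 in M3 and -0.02 in M4 (adjusted p = 0.0435 and 0.936). In the lines of the other knockout, NO06G02500 had 0.16 in M1 and 0.23 in M2 (adjusted p = 0.247 and 0.0220 from limma). There NO08G00280 had 0.31 in M3 and 0.56 in M4 (adjusted p = 0.450 and 0.162 from limma).

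The 4 genes were transcribed at very different levels. NO11G02550 ranked 95 from the top of the 10493 genes in M1, 216 in M2, 61 in M3, 26 in M4 and 33 in the WT. Over the 15 libraries its median was 1448 TMM-normalized TPM, against 275 for NO18G01550, 79.6 for NO20G00510 and 3.26 for NO05G00120. The mean read depth over the gene was 1133 to 4589 for NO11G02550, 285 to 834 for NO18G01550 and 95.3 to 228 for NO20G00510. For NO05G00120 it was 3.40 to 16.3 in the 11 libraries with any value, and the other 4 libraries list it at 0. Of the 4 genes, this last one had the thinnest coverage.

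The comparisons with the WT ask whether loss of either 6mA enzyme gene goes with a change in transcripts of oil storage and oil breakdown. In M2, NO11G02550 and the lipase genes NO20G00510 and NO18G01550 all fell, to between 30.8% and 49.1% of the WT mean. In M1 only NO11G02550 passed the test as lower, though the M1 libraries of NO20G00510 and NO18G01550 also all lay below the WT range. None of the 4 genes passed the test in M3 or M4.

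NO11G02550 lies on chromosome 11, from 804010 to 806019 on the minus strand, in the coordinates of the deposited tables. Its values were 1217, 1119 and 879 TMM-normalized TPM in M1 and 525, 528 and 626 in M2. In M3 they were 1469, 1301 and 1448, and in M4 they were 1635, 1819 and 1979, against 1846, 1854 and 1757 in the WT. Every M2 library was below every M1 library, every M1 and M3 library was below every WT library, and M4 overlapped the WT.

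The group means of NO11G02550 were 1072 ± 174 in M1, 559.6 ± 57.3 in M2, 1406 ± 91.5 in M3, 1811 ± 172 in M4 and 1819 ± 53.5 in the WT (SD, n = 3 each). Thus M1 held 58.9% of the WT mean, M2 30.8%, M3 77.3% and M4 99.6%. M2 differed from the WT by -1.70 on the log2 scale (adjusted p = 3.22e-06 from limma, SE 0.12), and only 1.93% of all tested genes had a lower value there. In M1 it was -0.78 (SE 0.12, adjusted p = 0.0120), a call that ended when only the M1 and WT libraries were fitted (adjusted p = 0.178). In M3 it was -0.37 (adjusted p = 0.123), which did not pass the test although no library overlapped the WT. In M4 it was -0.01 (95% interval -0.27 to 0.25, adjusted p = 0.982).

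**Figure D1:**
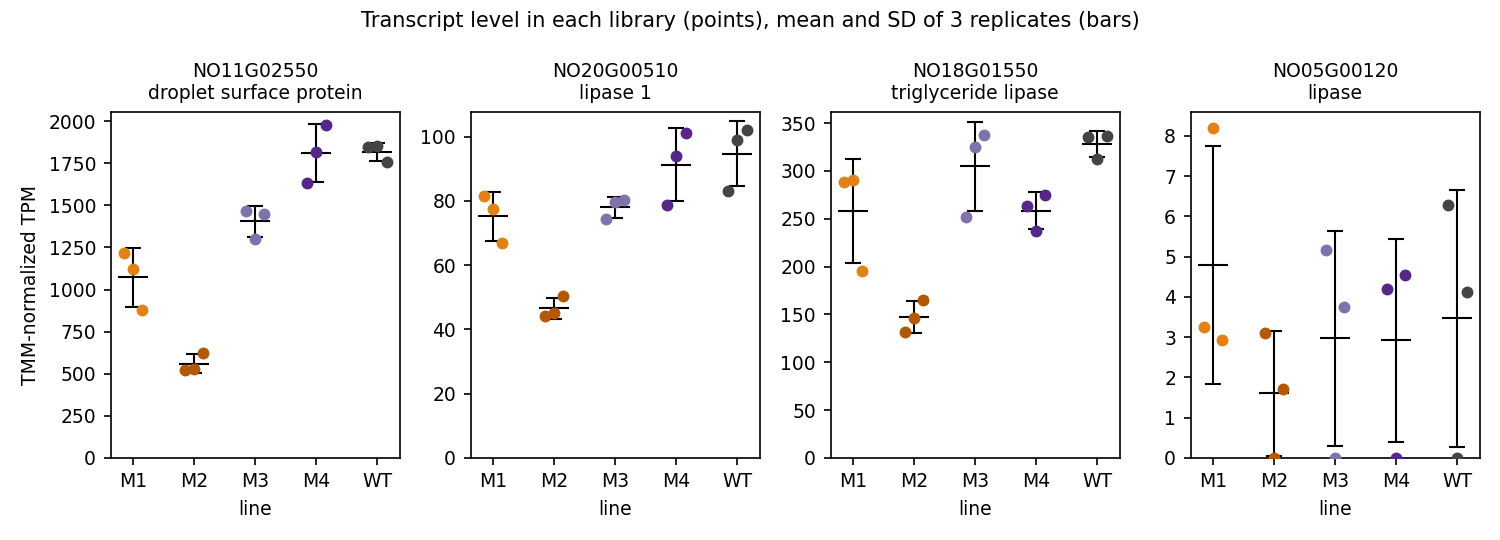
TMM-normalized TPM (y axis, a separate linear scale per gene) of each of the 4 genes in the lines M1 to M4 and the WT (x axis); points are the 3 libraries of a line, and the horizontal marks with bars are the mean and SD. M2 is lowest for NO11G02550, NO20G00510 and NO18G01550, with 525 to 626 against 1757 to 1854 in the WT for NO11G02550, while NO05G00120 is at 0 in 4 libraries of 4 different groups.

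NO20G00510, the lipase 1 gene, lies on the plus strand of chromosome 20 between 173463 and 177386. M1 libraries had 81.4, 77.5 and 66.8 TMM-normalized TPM and M2 libraries 44.1, 45.2 and 50.2. The M3 libraries had 74.3, 79.6 and 80.2 and the M4 libraries 78.9, 94.1 and 101, against 83.2, 98.9 and 102 in the WT. M1, M2 and M3 did not overlap the WT, but the highest M1 and M3 libraries came within 1.85 and 3.06 TMM-normalized TPM of the lowest WT library.

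The mean level of NO20G00510 was 75.2 ± 7.55 in M1, 46.5 ± 3.26 in M2, 78.0 ± 3.22 in M3, 91.3 ± 11.3 in M4 and 94.7 ± 10.1 in the WT (SD, n = 3 each). In M2 limma gave a log2-fold change of -1.01 (adjusted p = 5.52e-05, SE 0.11), which left 49.1% of the WT mean. The changes were -0.33 in M1 (adjusted p = 0.153), -0.27 in M3 (adjusted p = 0.192) and -0.05 in M4 (95% interval -0.29 to 0.18, adjusted p = 0.838). The fall in M2 stands at the 2-fold bound of the study, and it was below 2-fold with the unscaled StringTie TPM (-0.91), FPKM (-0.88), quantile normalization (-0.98) and a pseudocount of 5 (-0.95), with adjusted p-values from 3.81e-05 to 5.65e-05.

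NO18G01550, the triglyceride lipase gene, lies on the plus strand of chromosome 18 between 501393 and 504101. The values were 289, 291 and 195 TMM-normalized TPM in M1 and 132, 146 and 165 in M2. M3 libraries had 252, 325 and 338 and M4 libraries 263, 237 and 275, against 335, 312 and 336 in the WT. M1, M2 and M4 were below the whole WT range, and M3 was not.

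The mean level of NO18G01550 was 258 ± 54.4 in M1, 147 ± 16.5 in M2, 305 ± 46.3 in M3, 258 ± 19.3 in M4 and 328 ± 13.4 in the WT (SD, n = 3 each). In M2 the gene changed by -1.15 on the log2 scale (limma, adjusted p = 2.09e-04, SE 0.15), with 45.0% of the WT mean left. It was -0.37 in M1 (adjusted p = 0.247), -0.12 in M3 (adjusted p = 0.716) and -0.34 in M4 (adjusted p = 0.221). Unlike NO11G02550 and NO20G00510, this gene had a lower mean in M4 than in M3, with a difference of -0.23 that did not pass the test (95% interval -0.56 to 0.11, adjusted p = 0.307).

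NO05G00120, the lipase gene with the lowest level, lies on the minus strand of chromosome 5 between 51980 and 55473. It had 3.26, 8.20 and 2.92 TMM-normalized TPM in M1 and 3.09, 0 and 1.71 in M2. The values were 5.17, 0 and 3.74 in M3 and 4.20, 0 and 4.55 in M4, against 6.28, 0 and 4.13 in the WT. The 0 stands in replicate 2 of M2, M3, M4 and the WT, and the highest value of all stands in replicate 2 of M1. No group was separate from another.

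The zeros decide what can be said of NO05G00120. They left log2-fold changes of 0.68 (M1), -0.58 (M2), -0.12 (M3) and -0.12 (M4), each with an SE of 0.95, so that the 95% interval in M2 ran from -2.66 to 1.50. None passed limma's test (adjusted p = 0.751, 0.681, 0.973 and 0.970). With the zeros taken as missing, which was chosen after seeing the data, the change in M1 was -0.19 (adjusted p = 0.844 from limma). In that setting it was -0.87 in M2 (SE 0.43, adjusted p = 0.149), -0.17 in M3 (adjusted p = 0.865) and -0.19 in M4 (adjusted p = 0.860), and none passed. Among the 9440 tested genes, 503 (5.33%) are listed at 0 in at least 1 library and 44 in exactly 4, and NO05G00120 is the only one with zeros in just these 4 libraries. A 0 in such tables can be a failed estimate. The libraries list between 887 and 931 of all genes at 0, and the libraries of replicate 2, with 892 to 928, lie inside that range.

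NO05G00120 also differs from the other 3 genes in how its tabulated values relate. Within a library, coverage divided by FPKM is the same for most genes, and NO11G02550, NO20G00510 and NO18G01550 hold to that ratio. For NO05G00120 it was 5.75% below the common ratio in 9 libraries and 12.4% below it in replicate 3 of M4 and of the WT. Between 399 and 415 genes per library lie more than 0.1% off the common ratio. Whether this bears on the zeros was not tested.

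Read against all genes, the counts of genes called were as follows, at an adjusted p under 0.05 from limma. In M2, 3 of the 4 genes were called lower, where 18.2% of all tested genes were called lower and 16.5% higher. With the unscaled StringTie TPM, 14.2% were called lower and 21.7% higher, and the same 3 genes passed. In M1, 1 of 4 was called lower, against 1.13% of all genes. In M3 and M4 it was 0 of 4, against 0.339% and 3.69% of all genes. These 3 shares are uncertain, since the counts behind them, 107 genes in M1, 32 in M3 and 348 in M4, became 19 to 168, 5 to 76 and 63 to 311 on leaving out 1 library. At an unadjusted p under 0.05, 3 of the 4 genes were lower in M1, 2 in M3 (NO11G02550 and NO20G00510) and 1 in M4 (NO18G01550), where 9.49%, 10.3% and 11.9% of all genes were. Over the 4 genes the median change was -0.35 (M1), -1.08 (M2), -0.19 (M3) and -0.09 (M4), while the median over all tested genes lay within 0.01 of 0 in each line. At the study's stricter thresholds (adjusted p up to 0.001 and beyond 2-fold), 3 of the 4 passed as lower in M2, where 2.14% of all genes did, and none passed in the other lines. Of these, NO11G02550 also passed under all 12 alternatives and without any 1 of the 6 libraries compared. NO20G00510 passed under 7 of the 12 alternatives and stayed within 2-fold without replicate 1 or 2 of M2 or replicate 2 or 3 of the WT (-0.99 to -0.95). NO18G01550 passed under 11 of the 12, but its adjusted p was above 0.001 without replicate 1 or 2 of M2 or any 1 of the WT libraries (0.00105 to 0.00150).

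**Figure D2:**
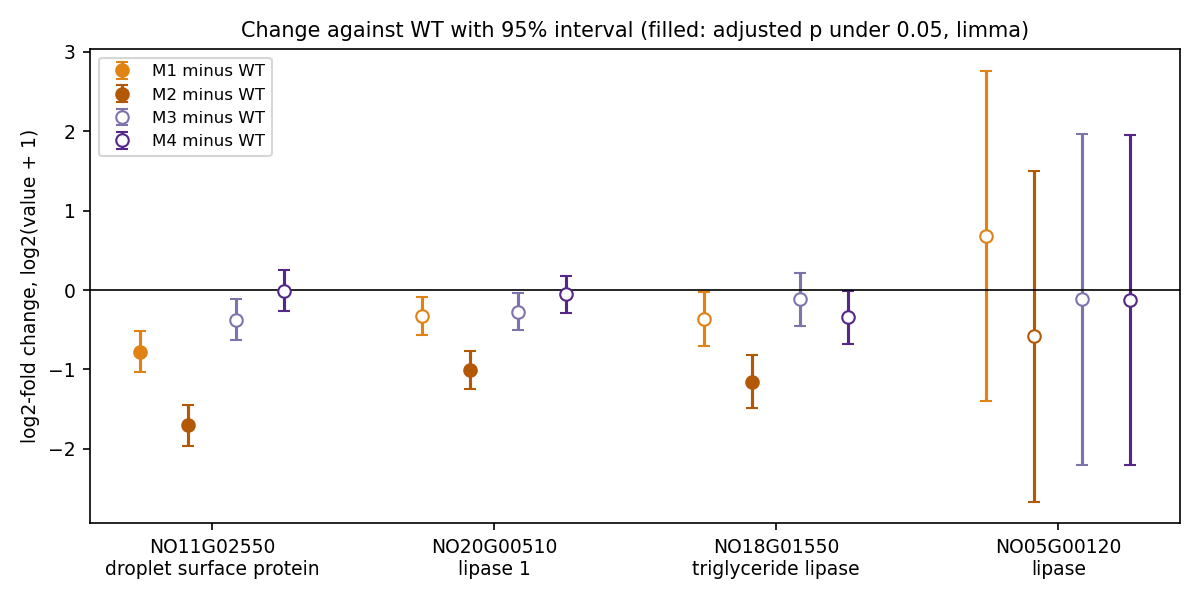
Log2-fold change against the WT on the log2(value + 1) scale (y axis) for each of the 4 genes (x axis), in M1, M2, M3 and M4 from left to right; bars are 95% intervals from limma and filled points passed at an adjusted p under 0.05. The filled points are those of NO11G02550 in M1 (-0.78) and of NO11G02550, NO20G00510 and NO18G01550 in M2 (-1.70, -1.01 and -1.15), and the intervals of NO05G00120 span 0 widely.

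The lines of 1 knockout were not alike. All 3 genes that fell in M2 were lower in M2 than in M1, in a comparison where 14.1% of all tested genes were called lower. The difference of M2 minus M1 was -0.93 for NO11G02550 (SE 0.12, adjusted p = 0.000325 from limma), -0.68 for NO20G00510 (adjusted p = 0.00122) and -0.79 for NO18G01550 (adjusted p = 0.00369). The M2 and M1 libraries did not overlap for any of the 3. For NO05G00120 the difference was -1.26 with an SE of 0.95 (adjusted p = 0.368).

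Between the NO06G02500 lines, only NO11G02550 differed, with 0.36 for M4 minus M3 (SE 0.12, adjusted p = 0.0412 from limma), where 11.8% of all genes were called higher. This call was near its threshold. It ended without filter on low values (adjusted p = 0.0513), when only the 6 libraries were fitted (adjusted p = 0.0631), and on leaving out any M3 library or replicate 2 or 3 of M4 (adjusted p from 0.0528 to 0.137). NO20G00510 had 0.22 (95% interval -0.02 to 0.45, adjusted p = 0.167).

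The order of the groups, lowest first, was M2, M1, M3, M4, WT for both NO11G02550 and NO20G00510. For NO18G01550 it was M2, M1, M4, M3, WT. In NO20G00510 and NO18G01550 only the lowest neighbours, M2 and M1, differed beyond their spread. In NO11G02550 the pairs M2 with M1 and M3 with M4 differed, while M1 minus M3 was -0.40 (adjusted p = 0.0912) and M4 minus WT was -0.01. For NO05G00120 the order was M2, M4, M3, WT, M1, and no neighbours differed.

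The lines of the 2 knocked-out genes were also set against each other without use of the WT. The contrast was the mean of M1 and M2 minus the mean of M3 and M4. Each gene has only 2 lines, so the p-values measure spread among cultures of a line and not among knockouts of a gene. NO11G02550 differed by -1.05 (SE 0.08, adjusted p = 1.29e-05 from limma), NO20G00510 by -0.50 (adjusted p = 0.000605) and NO18G01550 by -0.53 (adjusted p = 0.00381), where 13.9% of all genes were called lower. M2 carries most of these differences. M1 alone differed from M4 only for NO11G02550 (-0.77, adjusted p = 0.00197, where 8.17% of all genes were called lower), and M1 alone differed from M3 for none of the 4 genes, where 2.10% of all genes were called lower. Its values minus M3 were -0.06 for NO20G00510 (95% interval -0.29 to 0.18) and -0.25 for NO18G01550 (-0.59 to 0.09).

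Replicate 3 of M1 had the lowest value of its line in each of the 3 genes that fell in M2, and replicate 3 of M2 had the highest of its line. How often this holds over all genes was not counted. The factor by which TPM was scaled was 0.968 in that M1 library, against 1.03 in both others. Without it, the change of NO11G02550 in M1 was -0.64 (adjusted p = 0.0197 from limma), that of NO20G00510 -0.25 and that of NO18G01550 -0.18. The factors were 0.947, 0.947 and 0.985 in M2, against 1.03, 1.04 and 1.01 in the WT. The changes in M2 with unscaled TPM were -1.61 for NO11G02550, -0.91 for NO20G00510 and -1.06 for NO18G01550, and all 3 still passed.

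Ratios within a library do not depend on such factors, and they set the droplet protein gene against the lipase genes. NO11G02550 was 13.2 to 14.9 times NO20G00510 in M1, 16.3 to 19.8 times in M3 and 19.3 to 20.7 times in M4. The ratio was 11.9, 11.7 and 12.5 in the M2 libraries, against 22.2, 18.7 and 17.2 in the WT libraries. M1 and M2 therefore lay below the WT, and M3 and M4 overlapped it. The log2 ratio in M2 was lower by 0.68 than in the WT (difference -0.68, two-sided exact permutation p = 0.1, n = 3 against 3), and 0.1 is the smallest p that 3 against 3 can give.

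NO11G02550 over NO18G01550 was 3.85 to 4.50 in M1, 4.01 to 5.83 in M3 and 6.21 to 7.67 in M4. It was 3.98, 3.62 and 3.80 in the M2 libraries and 5.51, 5.93 and 5.23 in the WT libraries. M4 was the only line above the whole WT range, with a log2 difference of 0.34, while M1 (-0.41) and M2 (-0.55) were below it, each at the smallest exact permutation p of 0.1 for n = 3 against 3.

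**Figure D3:**
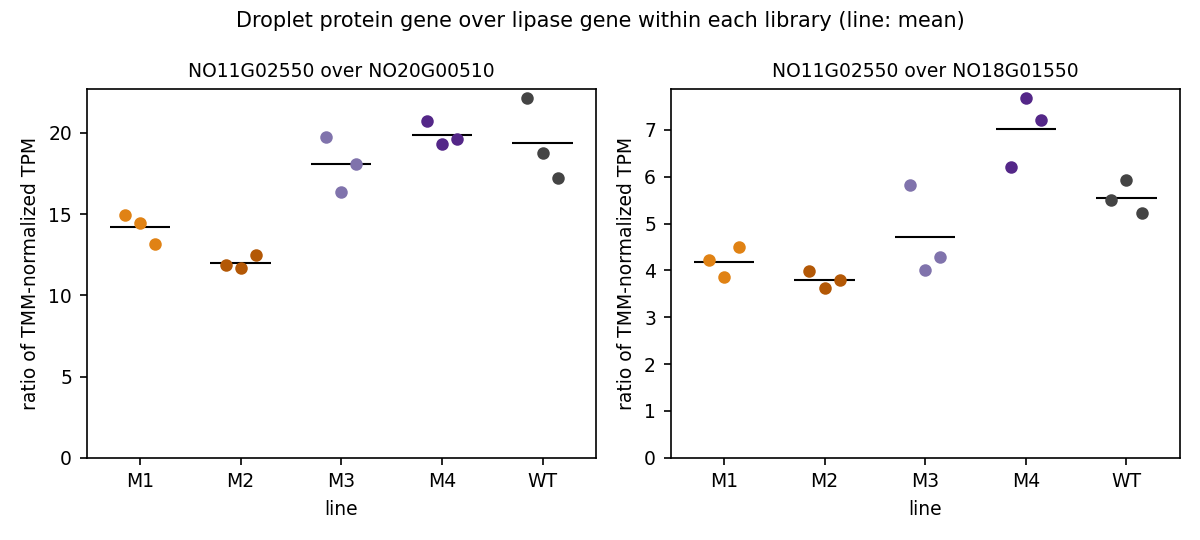
Ratio of TMM-normalized TPM of NO11G02550 to NO20G00510 (left) and to NO18G01550 (right) in each library (y axis, from 0), by line (x axis, M1 to M4 and WT); points are libraries and lines are means. M2 lies at 11.7 to 12.5 on the left and 3.62 to 3.98 on the right, below the WT at 17.2 to 22.2 and 5.23 to 5.93, and M4 lies above the WT on the right at 6.21 to 7.67.

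The genes beside the 4 were read for their setting on the chromosome, with the nearest 2 genes on each side taken. Reads carry no strand with the kit used. Of 16 neighbours 14 were tested, and in M2 3 fell and 2 rose, which is near what the shares over all genes (18.2% lower and 16.5% higher) give for 14 genes. In M1, M3 and M4 limma called 0 of 14. There 1.13%, 0.339% and 3.69% of all genes were called lower and 0.593%, 0.646% and 1.64% higher. At an unadjusted p under 0.05 from limma, none passed in M1, where 9.49% of all genes were lower. In M3, 2 were lower and 1 higher, and likewise in M4. There 10.3% and 11.9% of all genes were lower and 10.2% and 9.40% higher. NO11G02540 ends at the base before NO11G02550 on the other strand and did not pass the test in M2 (0.18, adjusted p = 0.225), nor did NO11G02560 on the far side (0.08, adjusted p = 0.284). The fall of NO11G02550 was thus not seen in the tested genes next to it. NO20G00510 shares 27 bases with NO20G00500 on the other strand, whose level was 729 ± 13.4 in M2 and 592 ± 132 in the WT (0.32, adjusted p = 0.308), and reads of the shared stretch cannot be told apart. NO20G00520, on the other strand, has its span from the base after NO20G00510 onward and rose in M2 (0.59, adjusted p = 0.00503). Reads near that border could be given to either gene.

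The triglyceride lipase gene had a neighbour with a like course. NO18G01540 lies 179 bases upstream on the same strand and had 139.6 ± 11.2 TMM-normalized TPM in M2, against 299 ± 11.4 in the WT (SD, n = 3 each). It changed by -1.10 in M2 (limma, adjusted p = 9.46e-04, SE 0.18), beside -1.15 for NO18G01550. In the other lines the values of NO18G01540 were -0.38 in M1, -0.13 in M3 and -0.53 in M4, which did not pass, beside -0.37, -0.12 and -0.34 for NO18G01550. The gene on the other side, NO18G01560, had -0.13 in M2 (adjusted p = 0.673).

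Around NO05G00120 the better measured neighbours moved in both directions. NO05G00110 spans up to the base before it on the same strand and fell in M2, with 40.1 ± 1.02 against 82.7 ± 4.07 in the WT (-1.03, adjusted p = 3.60e-05 from limma). NO05G00130, 285 bases to the other side on the same strand, fell in M2 to 13.3 ± 2.85, against 23.8 ± 1.78 in the WT (-0.81, adjusted p = 0.0149). NO05G00140 rose in M2 to 33.4 ± 2.47, against 13.8 ± 2.06 in the WT (1.23, adjusted p = 9.50e-04). Reads near a border between 2 genes could be given to either gene, and their part in the values of NO05G00120 was not tested.

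**Figure D4:**
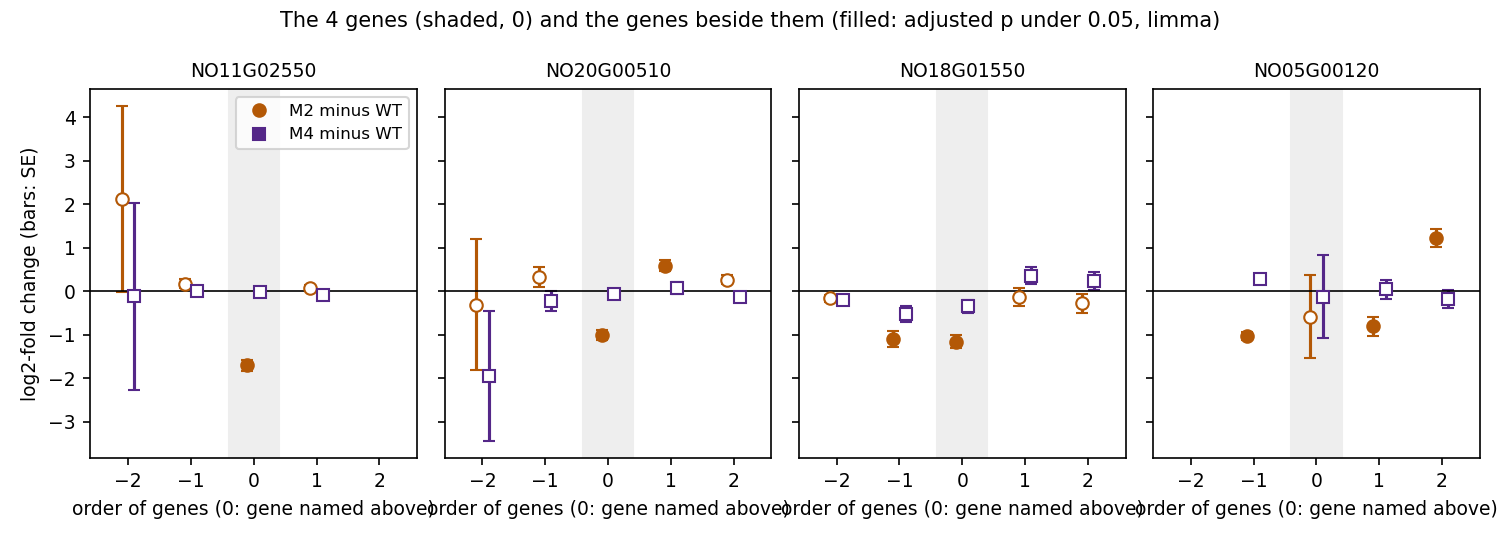
Log2-fold change against the WT (y axis) of the 4 genes (order 0, shaded) and the tested genes beside them (x axis, order along the chromosome by start), in M2 (circles) and M4 (squares); bars are SE and filled symbols passed at an adjusted p under 0.05. In M2, NO18G01540 (-1.10) stands beside NO18G01550 (-1.15) and NO05G00110 (-1.03) beside NO05G00120, while the tested neighbours of NO11G02550 did not pass and no M4 symbol is filled.

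Other lipid genes were read from a list of 12, picked by description from the study's own list of changed genes, so that their calls are not independent evidence either. One, NO11G02960, was below the filter with values of 0 to 0.641, and 11 were tested. In M2, 6 fell, 2 rose and 3 did not pass, with a median change of -1.09 over the 11, where 18.2% of all tested genes fell and 16.5% rose. In M1, M3 and M4 limma called 0 of 11, against 1.13%, 0.339% and 3.69% of all genes called lower and 0.593%, 0.646% and 1.64% higher. At an unadjusted p under 0.05, 5, 5 and 0 were lower, against 9.49%, 10.3% and 11.9% of all genes. The medians there were -0.41, -0.35 and -0.01.

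The 3 genes of the list described for sulfolipid synthesis fell in M2, and other genes of that pathway were not looked at. These enzymes make sulfoquinovosyldiacylglycerol, a membrane lipid of the chloroplast. NO15G02830 had 14.8, 15.6 and 25.3 TMM-normalized TPM in M2, against 340, 434 and 430 in the WT, which is -4.39 on the log2 scale (limma, adjusted p = 1.90e-06, SE 0.26). NO07G01720 changed by -1.85 and NO05G03760 by -1.09. The changes of NO15G02830 and NO07G01720 lay below the lowest of the 4 droplet and lipase genes, -1.70 for NO11G02550, and that of NO05G03760 lay between those of NO20G00510 and NO18G01550. These differences between genes were not tested.

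Of the candidates for hydrolysis, NO04G01100, of the phospholipase C-like phosphodiesterases, changed by -1.94 on the log2 scale in M2 (adjusted p = 3.36e-05 from limma), to 138 ± 28.8, against 526 ± 67.0 in the WT. NO21G02500, of the alpha/beta-hydrolase superfamily to which lipases belong, had -0.01 (SE 0.61), which did not pass. Of the genes for lipid transfer and binding, NO13G02950, of the Sec14-like family that moves phosphatidylinositol, fell by 1.13, and NO18G01150, with a lipid-binding START domain, fell by 1.63.

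The genes that rose in M2 both belong to fatty acid activation and elongation by description. NO12G02050, of the AMP-dependent synthetase and ligase family, which includes acyl-CoA synthetases, changed by 1.15 (adjusted p = 7.10e-04 from limma). NO16G00440, of the GNS1/SUR4 family of fatty acid elongases, changed by 1.38 (adjusted p = 5.82e-05), with 31.6 ± 4.29 in M2 and 11.5 ± 1.46 in the WT. NO02G00050, the other tested gene listed for that role, changed by 0.97 and did not pass (limma, SE 0.52, adjusted p = 0.174). NO07G01500, of the diacylglycerol acyltransferase family that makes TAG, had 48.2, 48.9 and 3.81 in M2 and 45.0, 9.02 and 48.6 in the WT, a change of -0.32 with an SE of 1.08 that did not pass. Replicate 3 of M1 was the lowest of its line, and replicate 3 of M2 the highest, in all 6 list genes that fell in M2, as in NO11G02550, NO20G00510 and NO18G01550. The list genes that rose ran otherwise. In M1 their highest value was in replicate 3 (10.2 for NO16G00440 and 10.4 for NO12G02050). In M2 replicate 3 was the lowest for NO16G00440 (27.0) but not for NO12G02050 (16.2, against 13.3 in replicate 1).

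**Figure D5:**
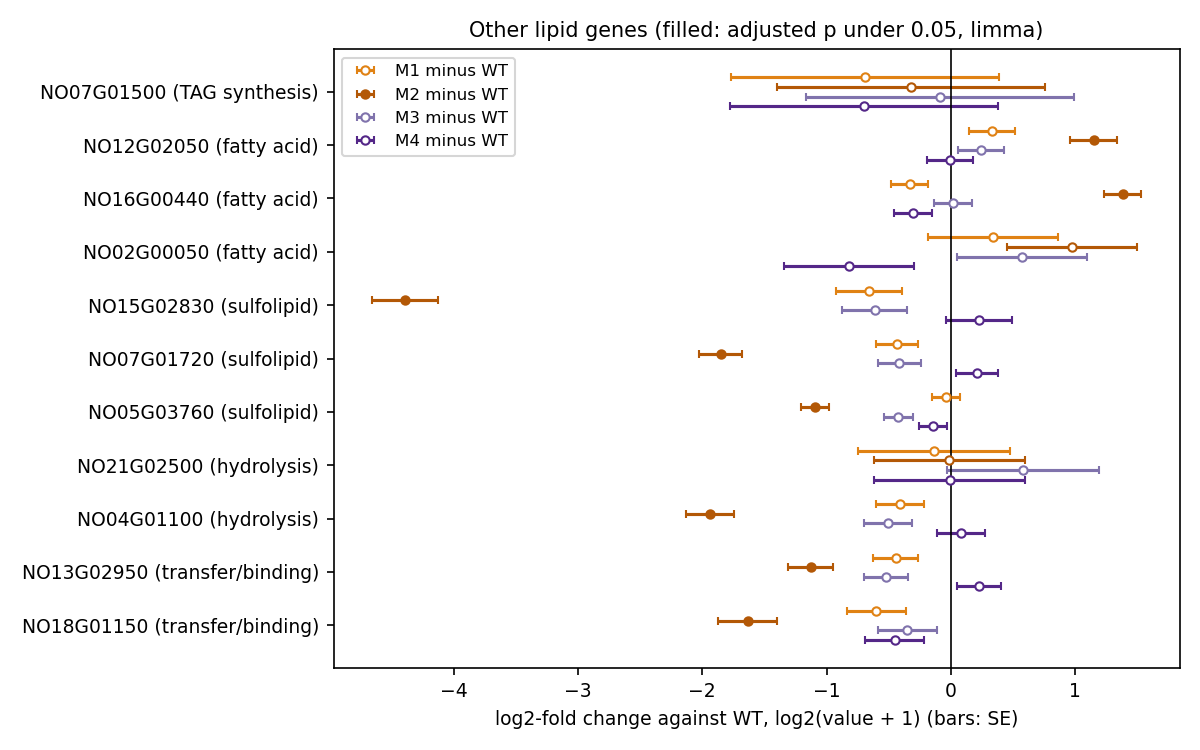
Log2-fold change against the WT on the log2(value + 1) scale (x axis) of the 11 tested lipid genes of the list (y axis, with their role), in M1, M2, M3 and M4 from top to bottom within a gene; bars are SE and filled points passed at an adjusted p under 0.05 from limma. In M2, 6 genes fell, NO15G02830 furthest at -4.39, and NO12G02050 and NO16G00440 rose, and no point of the other lines is filled.

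The 4 genes were also compared by their course over the libraries, as Pearson's r of log2(value + 1), given as a description because all genes share the libraries. NO11G02550 and NO20G00510 ran together, with r = 0.961 over 15 libraries and 0.817 over the 12 without M2. NO18G01550 had r = 0.871 with NO11G02550 and 0.883 with NO20G00510, but 0.435 and 0.439 without M2. NO05G00120 had r between 0.113 and 0.221 with the others. Without M2 its r was -0.163 with NO11G02550, -0.292 with NO20G00510 and 0.031 with NO18G01550. Other genes ran closer to each of the 4 than these did to each other.

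The gene most like NO11G02550 was NO12G00390, with r = 0.979 over 15 libraries and 0.930 over the 12 without M2. It had 43.4 ± 7.38 TMM-normalized TPM in M2 and 945 ± 152 in the WT, a change of -4.41 beside -1.70 for NO11G02550. NO16G01610, NO01G04050, NO20G01980 and NO21G01560 followed, with r from 0.977 to 0.979. The gene most like NO20G00510 was NO11G01610 (r = 0.984, and 0.935 without M2), with a change of -1.06 in M2, and then came NO10G01780, NO17G01230, NO04G02550 and NO04G03330. The gene most like NO18G01550 was NO18G01150, the START domain gene of the lipid list (r = 0.979, and 0.919 without M2), followed by NO13G00160, NO26G01050, NO07G01150 and the neighbour NO18G01540 (r = 0.968, and 0.944 without M2). For NO05G00120 the highest r was 0.704, with NO23G00210, and NO02G02820, NO01G03360, NO04G05170 and NO16G01860 came next. How far r there rests on its 4 zeros was not tested.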

How the data were processed

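Libraries were made with the NEBNext Ultra kit, which does not mark strand, and sequenced on an Illumina HiSeq. Per the methods of the study, the authors aligned reads with STAR in the nf-core/rnaseq pipeline and used Trinity (RSEM2 method, TMM) for the expression matrix. The deposited matrix, used as a signal without counts, equals the StringTie TPM of each library times 1 factor (0.947 to 1.05). The authors also deposited the coverage, FPKM and TPM of StringTie for each library, used for depth and alternatives. Coordinates are those of these tables, in the IMET1v2 genome of the study. No genome or protein sequence was used here, so none is shown.

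The 9440 genes with a mean of at least 1 were tested on log2(value + 1) with limma 3.58.1 in R 4.3.3, with 5 group means, a mean-variance trend and p-values adjusted by Benjamini-Hochberg over all genes in each of 13 comparisons. A fold change on this scale understates that of low genes. The authors used edgeR, which needs counts. The replicate numbers did not pair the libraries: deviations of same-numbered libraries correlated at -0.07 to 0.09 over 30 pairs. No 2 libraries were identical. Ratios were compared by an exact permutation test. The rest was done in Python 3.11.15 (pandas 2.3.3, numpy 2.4.6, matplotlib 3.10.9).

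The genes and lists were chosen with earlier results of these data known. Named genes are the 4 genes, the 12 of the lipid list, the 2 nearest genes on each side, for each of the 4 the 5 tested genes with the highest Pearson r, and the knocked-out genes. Alternatives were other pseudocounts, filters, normalizations, limma settings, separate fits, a replicate block and leaving out each library. The authors' own fold changes in the supplement were not used.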

Additional observations from a re-analysis of the deposited data

Results flagged for a closer look

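NO11G02550 responded differently in the 2 lines of NO08G00280, with a difference of -0.93 for M2 minus M1 (adjusted p = 0.000325 from limma). NO20G00510 (-0.68, adjusted p = 0.00122) and NO18G01550 (-0.79, adjusted p = 0.00369) did so too. Both lines carry a knockout of the same gene and share the WT libraries. These differences were tested directly between the lines.

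Between the lines of NO06G02500, the change of NO11G02550 differed by 0.36 for M4 minus M3 (adjusted p = 0.0412 from limma), near the threshold. The mean of M1 and M2 also differed from that of M3 and M4, by -1.05 for NO11G02550 (adjusted p = 1.29e-05 from limma). It differed by -0.50 for NO20G00510 (adjusted p = 0.000605) and by -0.53 for NO18G01550 (adjusted p = 0.00381). With only 2 lines per knocked-out gene, these p-values measure spread among cultures of a line and not among knockouts of a gene. With 3 libraries a group, no single library was tested as standing apart.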

How the results depend on the processing

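The falls of NO11G02550, NO20G00510 and NO18G01550 in M2 against WT and against M1 passed limma's test under all 12 alternatives and without any 1 of the 6 libraries compared. In M1 the call of NO11G02550 ended only when the M1 and WT libraries were fitted by themselves (-0.78, adjusted p = 0.178), where 0 of the 4 genes were called and 11 of all genes were called lower, against 107. Changes near 0 turned sign. NO11G02550 in M4 was 0.035 with StringTie TPM, 0.031 with FPKM and 0.20 with quantile normalization, and -0.076 to 0.061 on leaving out 1 library. On leaving out 1 library, NO20G00510 ranged in M4 over -0.14 to 0.047 and in M1 minus M3 over -0.12 to 0.025, and NO18G01550 in M3 over -0.20 to 0.015 and in M1 minus M4 over -0.12 to 0.17. NO05G00120 ranged over -0.19 to 1.24 in M1, -0.99 to 0.70 in M3 and -0.99 to 0.69 in M4, and was -0.19 in M1 with zeros as missing. The cause was not tested. M1 minus M3 of NO11G02550 passed with StringTie TPM (-0.39, adjusted p = 0.0498), and M1 minus M4 of NO20G00510 without replicate 1 of M4 (-0.37, adjusted p = 0.0406). Without WT replicate 1, 1 lipid gene was called lower in M3, against 0. The count of lipid list genes called higher in M2 was 2 to 3 over the alternatives. The log2 ratio of NO11G02550 to NO20G00510 in M2 ranged from -0.76 to -0.58 and that to NO18G01550 from -0.59 to -0.50.

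With the replicate number as a block, NO11G02550 kept its call in M1 (adjusted p = 0.0374) and lost that for M4 minus M3 (0.36, adjusted p = 0.0692), and no other call of the 4 genes changed. Over all genes, the block moved the count called lower in M1 to 40, against 107, and in M3 to 8, against 32. Over the alternatives, the count called lower was 11 to 125 in M1, 1294 to 1764 in M2, 4 to 38 in M3 and 73 to 363 in M4. On leaving out 1 library it was 19 to 168 in M1, 1372 to 1586 in M2, 5 to 76 in M3 and 63 to 311 in M4, and it moved by over 1.5 times without any M1 or WT library for M1, without any but replicate 1 of M3 for M3, and without replicate 1 or 2 of M4 or of the WT for M4. The called genes of M2 were lower in 52.5% of cases, in 39.5% with StringTie TPM and in 37.6% with FPKM. NO05G00120 had the thinnest coverage of the 4 genes, and counting error is unknown without counts. Whether depth bears on its zeros was not tested.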

Other observations

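NO07G01500, of the diacylglycerol acyltransferase family, had values in 2 separate ranges in every group. Its libraries had 9.79, 9.79 and 45.5 TMM-normalized TPM in M1, 48.2, 48.9 and 3.81 in M2, 46.2, 39.6 and 8.95 in M3, 11.0, 48.2 and 8.05 in M4 and 45.0, 9.02 and 48.6 in the WT. No library of any group lay between 11.0 and 39.6. The group means, 21.7 in M1, 33.6 in M2, 31.6 in M3, 22.4 in M4 and 34.2 in the WT, all lay in that gap and describe none of the libraries.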
